A study of Homo sapiens with 6 samples.

Results

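To examine long noncoding RNAs in bladder cancer cells labelled FOXC1 KO, the well expressed long intergenic and antisense RNAs of J82 were followed across 3 control and 3 FOXC1 KO libraries. J82 is an established human bladder cancer cell line, and FOXC1 is a transcription factor of the forkhead family. The KO cells had received LentiCRISPRv2, a lentiviral vector that carries Cas9 and a guide RNA, and the methods describe the control cells as a vector control. The counts came from libraries of polyadenylated RNA read as pairs of 75 bases. The sources did not say whether the 3 libraries of a group came from separate cultures or clones, so p-values measure only the spread between these libraries.

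The RNAs were chosen by level. A gene was taken when it was a long intergenic or antisense RNA and its mean over all 6 libraries was at least 5 CPM (the count divided by the library's total count and multiplied by 1000000). RNAs of the HOX clusters were left out. Of the 57820 genes of the table, 239 met the rule, 102 intergenic and 137 antisense. The GENCODE v19 classes named in the rule were not used here, because the annotation at hand (GENCODE v44 lifted to GRCh37, the same assembly as hg19) gives a single class of long noncoding RNA for nearly all of them. The classes were therefore rebuilt from position and strand, with no overlap with a coding gene for intergenic RNAs and overlap on the opposite strand only for antisense RNAs. For 5 RNAs the annotation still carried a v19 class, which was kept, and 4 of these (RP1-178F10.3, RP11-1002K11.1, LINC00842 and RP5-1024G6.8) count as intergenic although they overlap a coding gene on its own strand. Of the 280 long noncoding RNAs at 5 CPM or more, 35 that overlapped a coding gene on its own strand and 6 HOX cluster RNAs were left out. Genes that this annotation types as protein coding were not among the 280, and TUG1 and TINCR are 2 of them. TUG1 had a mean of 140.1 CPM in control and 151.4 CPM in KO, and TINCR 23.57 and 20.34 CPM. Neither was called (adjusted p = 0.23 and 0.146 by edgeR). A further 136 of the 10983 genes at 5 CPM or more had no identifier in this annotation and were not classed.

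Long noncoding RNAs are transcripts that are spliced and often polyadenylated as messenger RNAs are, but carry no long reading frame. Some act as scaffolds in nuclear bodies, some are the precursors of small RNAs held in their introns or exons, and many start next to a coding gene on the opposite strand. Transcripts that leave a shared promoter region in opposite directions are called divergent, and divergent and antisense RNAs often change together with their coding neighbour.

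Each RNA was paired with its nearest protein-coding gene by the distance between gene bodies. Of the 239 pairs, 85 were divergent (opposite strands and start sites within 2 kb), 84 were antisense overlapping, 66 lay apart and 4 overlapped on the same strand. The table's counting was not stated to use strand, and 120 of the RNAs shared exon bases with a coding gene, 17 of them over more than 50% of their exon length. For those RNAs, reads of the coding gene and of the RNA cannot be told apart, and the shared share of exon bases is given below for the RNAs of the called pairs that are described and for some others. Exon overlap here and below is that of the later annotation. It may differ from that of the GENCODE v19 exons on which reads were counted.

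The 6 libraries held 18408134 to 25350908 counts, and the 239 RNAs took 0.637% to 0.736% of them. The median RNA had a mean of 10.2 CPM and the most abundant one 1510 CPM. The libraries of a group correlated at 0.994 or more in log2 CPM across genes and libraries of different groups at 0.985 or less. In the libraries labelled control, FOXC1 itself stood at 18.03, 17.1 and 19.6 CPM, and in those labelled KO at 24.1, 22.1 and 21.1 CPM. The log2 fold change of 0.30 (SE 0.0914) had an adjusted p of 0.0127, under the fold required for a call, and the adjusted p became 0.0827 without control replicate 2 and 0.0784 without KO replicate 1. A gene count does not show a small insertion or deletion, so the FOXC1 level checks neither label. Per the labels the submitters examined the knockout by western blot, which is not analysed here.

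A gene was called when the adjusted p of edgeR's quasi-likelihood test, fitted and adjusted over all 15647 genes tested, fell under 0.05 with a fold change above 1.3. All 239 RNAs were tested, and 22 rose and 25 fell in FOXC1 KO. These 47 calls were 19.7% of the RNAs, beside a background of 16.0% over all genes tested (7.57% higher and 8.39% lower) and 13.3% over coding genes at the same level. Among the 1243 tested intergenic and antisense RNAs below 5 CPM, 14.0% were called. The median log2 fold change was -0.0516, beside -0.000839 over all genes tested, and 141 RNAs (59.0%) lay below zero, beside 50.1% of all genes. The groups did not overlap in CPM for 105 RNAs (43.9%), beside 41.0% of all genes tested (19.9% with KO the higher group), and this held for all 47 called RNAs. A change of over 2-fold passed the test for 5 RNAs, and all 5 were higher in KO (MANCR, DIRC3, STEAP1B-AS1, LINC01605 and WNT5A-AS1). MANCR, STEAP1B-AS1 and WNT5A-AS1 had control means under 5 CPM and met the rule through the KO libraries, so that the rule has a part in their direction. Over all genes, 4.07% passed that limit. By adjusted p alone 78 RNAs passed, beside 29.4% of all genes tested.

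Since the level over all 6 libraries chose the RNAs, 18 of them had a mean under 5 CPM in 1 group and passed through the other. Of the RNAs described below with the largest changes, these include MANCR, STEAP1B-AS1, WNT5A-AS1 and PAX8-AS1, which passed through KO. They also include DLX6-AS1 and LINC03060, which passed through control. The rule has a part in the direction of each. Among these 18, 7 were higher and 5 lower, and among the 221 with a mean of at least 5 CPM in both groups, 15 were higher and 20 lower. By class, 10 intergenic RNAs rose and 9 fell, and 12 antisense RNAs rose and 16 fell. By arrangement, 4 divergent RNAs rose and 7 fell, 9 antisense overlapping RNAs rose and 10 fell, and 8 of those apart rose and 8 fell.

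**Figure D1:**
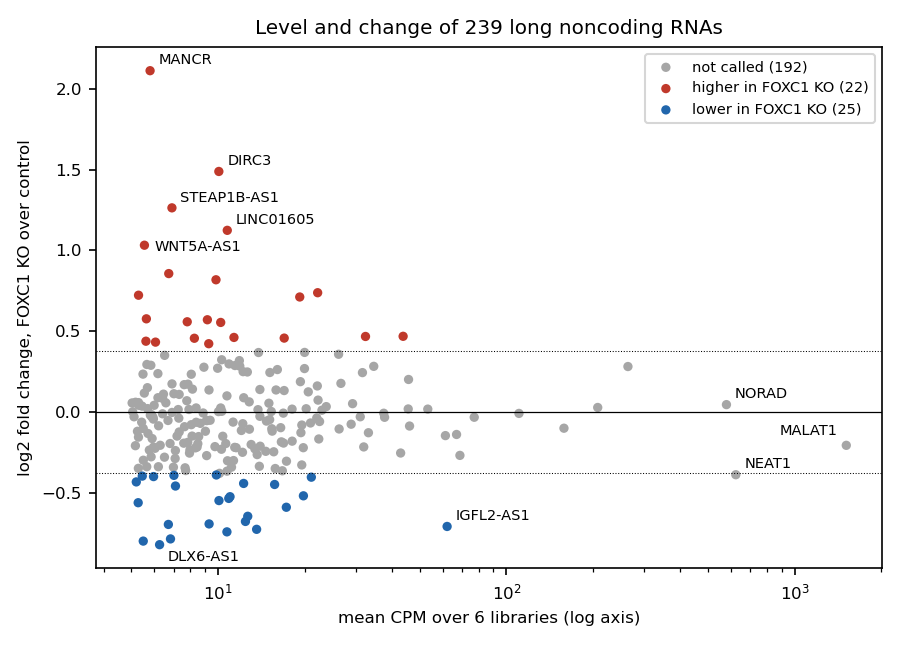
Each point is 1 of the 239 RNAs, with its mean CPM over the 6 libraries on a log axis and its log2 fold change (FOXC1 KO over control) on the other axis. Red and blue points are the 22 RNAs called higher and the 25 called lower, dotted lines mark a fold change of 1.3, and the 5 RNAs changed by over 2-fold all lie above zero.

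The largest rise was that of MANCR, an intergenic RNA known as a mitotically associated long noncoding RNA (chromosome 10, 4623487 to 4720408, minus strand, GRCh37). It stood at 2.23, 2.36 and 1.999 CPM in the control libraries and at 8.69, 9.66 and 9.87 CPM in the KO libraries. This was a log2 fold change of 2.11 with an SE of 0.137 (adjusted p = 6.49e-13), and it stayed between 2.04 and 2.16 when each library was left out in turn. Its nearest coding gene, the aldo-keto reductase gene AKR1E2, lay 108413 bases away and held 3.14, 3.36 and 4.28 CPM in control and 4.07, 3.47 and 3.30 CPM in KO, so that its groups overlapped.

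The sequence around the MANCR start is printed because it holds the letters GTAAACA, the core recognised by many forkhead factors, here in capitals. The window runs from 250 bases before to 50 bases after the start in RefSeq (chr10:4678021-4678320, minus strand, GRCh38.p14), and the capitals lie 63 to 57 bases before the start.
MANCR: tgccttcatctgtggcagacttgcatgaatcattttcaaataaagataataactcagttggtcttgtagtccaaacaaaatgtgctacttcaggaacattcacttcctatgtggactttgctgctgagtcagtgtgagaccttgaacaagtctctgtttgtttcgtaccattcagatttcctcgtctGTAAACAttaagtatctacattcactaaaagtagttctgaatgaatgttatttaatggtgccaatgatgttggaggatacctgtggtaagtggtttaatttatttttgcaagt
Windows of 166 RNAs were found by symbol in the RefSeq table, 201 windows in all, since some genes have several. On either strand GTAAACA occurred in 4 of them (1.99%), beside 3.42% of all 35116 windows of 300 bases. It occurred in 1 of 18 windows of RNAs that rose (MANCR) and in 1 of 20 windows of RNAs that fell (LINC01270). The shorter TAAACA, which every GTAAACA contains, occurred in 6.97% of the windows of these RNAs and in 12.3% of all windows. GGGCGG, the GC box core, occurred in 64.2% and 45.0%, and the median GC content was 64.7% and 58.7%. A match is a run of letters and not a measured binding site.

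DIRC3, an intergenic RNA first described at a translocation in renal cancer (chromosome 2, 218148742 to 218621316, minus strand), rose from 3.89, 5.22 and 6.76 CPM to 14.99, 14.2 and 15.3 CPM, by 1.49 on the log2 scale (SE 0.129, adjusted p = 2.91e-10). The control libraries were spread more widely than the KO libraries, and the groups stayed far apart. The nearest coding gene TNS1, which encodes the focal adhesion protein tensin, was too low to be tested. The nearest tested coding gene of DIRC3 was ARPC2, 461 kb away. ARPC2 went the other way, with a log2 fold change of -0.28 (adjusted p = 0.00167), under the fold for a call.

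STEAP1B-AS1, antisense to STEAP1B on chromosome 7 (22602956 to 22613615, plus strand), stood at 3.14, 4.52 and 4.598 CPM in control and 8.75, 10.5 and 10.0 CPM in KO (log2 fold change 1.26, SE 0.133, adjusted p = 1.4e-08). It shared 37.6% of its exon bases with coding exons. STEAP1B was too low to be tested, and the nearest tested coding gene, 152 kb away, was IL6, which encodes the inflammatory cytokine interleukin 6. IL6 held 29.7, 33.1 and 34.8 CPM in control and 66.8, 61.9 and 60.2 CPM in KO, a log2 fold change of 0.96 (adjusted p = 1.27e-10).

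LINC01605, an intergenic RNA on chromosome 8 (37373917 to 37378965, minus strand), rose from 6.77, 7.46 and 6.20 CPM to 13.3, 15.9 and 14.9 CPM (log2 fold change 1.12, SE 0.111, adjusted p = 4.39e-09). A longer gene with the same symbol spans this one on the same strand (37278859 to 37411701) and was below 5 CPM. It held 1.22, 1.16 and 1.08 CPM in control and 5.05, 4.69 and 4.36 CPM in KO (log2 fold change 2.03, SE 0.175, adjusted p = 2.77e-10). Both rose, and how reads were split between these overlapping genes is uncertain.

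WNT5A-AS1 and PAX8-AS1 were the other RNAs among the 6 largest rises, and both overlap coding genes that rose with them. WNT5A-AS1 (chromosome 3, 55521727 to 55522336, plus strand) rose from 3.32, 3.40 and 4.198 CPM to 8.37, 7.18 and 6.82 CPM (log2 fold change 1.03, SE 0.135, adjusted p = 7.18e-07). PAX8-AS1 (chromosome 2, 113968998 to 114034158, plus strand) rose from 5.11, 4.39 and 4.96 CPM to 8.20, 9.07 and 8.68 CPM (log2 fold change 0.86, SE 0.121, adjusted p = 2.61e-06). WNT5A-AS1 shared no exon bases with coding exons and PAX8-AS1 shared 7.47% of its own. In each, the lowest KO library stood above the highest control library.

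The largest falls were smaller than the largest rises, and no RNA fell by over 2-fold. DLX6-AS1, which overlaps the homeobox gene DLX6 (chromosome 7, 96584453 to 96643400, minus strand), stood at 7.25, 7.95 and 8.76 CPM in control and 5.16, 4.42 and 4.02 CPM in KO. It fell by 0.82 on the log2 scale (SE 0.128, adjusted p = 1.14e-05) and shared 4.11% of its exon bases. LINC03060, an intergenic RNA beside the aldose reductase gene AKR1B1 (chromosome 7, 134053489 to 134117286, minus strand), stood at 6.29, 7.46 and 7.32 CPM and then at 3.37, 4.85 and 3.69 CPM, and fell by 0.80 (SE 0.139, adjusted p = 5.48e-05). AKR1B1 had a log2 fold change of -0.19 that did not pass the test (adjusted p = 0.0623).

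CASC9, an RNA named for cancer susceptibility (chromosome 8, 76032644 to 76264562, minus strand), stood at 7.55, 9.36 and 9.04 CPM in control and 5.22, 4.77 and 5.04 CPM in KO. It fell by 0.78 (SE 0.122, adjusted p = 1.05e-05). The RNA listed as ENSG00000260196 (chromosome 11, 17402196 to 17405078, plus strand) overlaps the potassium channel gene KCNJ11, which was too low to be tested. It stood at 12.8, 13.9 and 13.7 CPM in control and at 8.09, 8.17 and 7.75 CPM in KO, a fall of 0.74 (SE 0.103, adjusted p = 1.91e-06). The nearest tested coding gene of ENSG00000260196, 3.31 kb away, was NCR3LG1, which encodes the B7-H6 ligand of natural killer cells. NCR3LG1 fell too, from 76.2, 77.3 and 80.8 CPM to 47.5, 44.3 and 38.3 CPM (log2 fold change -0.84, adjusted p = 2.1e-09).

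GATD1-DT starts 86 bases from the start of GATD1 and runs the other way (chromosome 11, 777574 to 785231, plus strand). It stood at 17.5, 17.1 and 16.3 CPM in control and at 11.2, 10.8 and 8.68 CPM in KO, a fall of 0.72 (SE 0.106, adjusted p = 4.13e-06). GATD1 had a log2 fold change of -0.20 (adjusted p = 0.0473), under the fold for a call. IGFL2-AS1 (chromosome 19, 46692286 to 46706417, minus strand) was the RNA with the highest CPM among those that fell. It held 71.4, 83.1 and 77.6 CPM in control and 51.4, 45.4 and 44.6 CPM in KO (log2 fold change -0.71, SE 0.0785, adjusted p = 4.07e-08). The nearest coding gene of IGFL2-AS1, the growth factor-like gene IGFL1, was too low to be tested. Its nearest tested coding gene, PPP5C, lay 144 kb away and had a log2 fold change of -0.02 (adjusted p = 0.842).

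**Figure D2:**
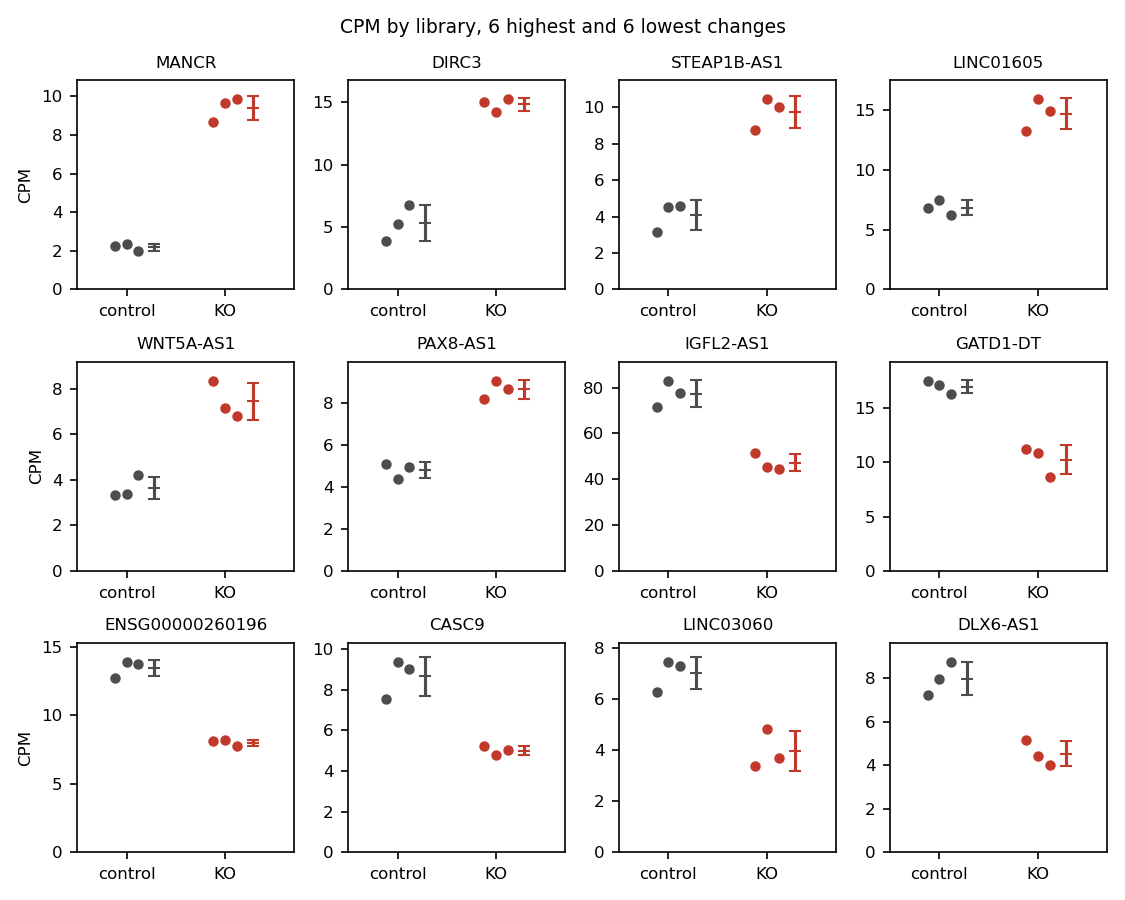
CPM in each of the 6 libraries for the 6 called RNAs with the highest and the 6 with the lowest log2 fold change, with axes that start at 0. Points are libraries, and the bar beside them is the mean with 1 SD over the 3 libraries of a group; in each panel the control and KO libraries do not overlap.

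All 12 of these RNAs were called with any single library left out and by DESeq2. Over the 47 calls, 9 were lost in at least 1 of those 6 fits. Without control replicate 2, the calls of GIHCG, LINC01444, RBM33-DT, TRIM8-DT and ZDHHC12-DT were lost. Without control replicate 3, those of ATP6V0E2-AS1, LINC01204, LINC01836 and ZDHHC12-DT were lost. Without KO replicate 1, GIHCG, LINC01444 and ZDHHC12-DT were lost, and without KO replicate 2 these and MIR1915HG, RBM33-DT and TRIM8-DT. Without KO replicate 3, ATP6V0E2-AS1, LINC01204 and LINC01836 were lost.

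None of the 6 RNAs highest in CPM was called, beside 16.0% of all genes tested. MALAT1, a nuclear speckle RNA (chromosome 11, 65265111 to 65275544, plus strand), held 1415, 1862 and 1591 CPM in control and 1399, 1549 and 1246 CPM in KO. At a log2 fold change of -0.21 (SE 0.0863) the adjusted p was 0.073, and the groups overlapped. Without control replicate 1 the adjusted p was 0.00644 at a log2 fold change of -0.29, and without KO replicate 2 it was 0.0241, both under the fold for a call.

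NEAT1, the scaffold of paraspeckles (chromosome 11, 65190245 to 65213011, plus strand), held 749, 782 and 597 CPM in control and 449, 512 and 658 CPM in KO. These are counts per gene from polyadenylated RNA, so they do not show which NEAT1 isoform was measured. Control replicate 3 lay below KO replicate 3, and the log2 fold change of -0.39 (SE 0.149) had an adjusted p of 0.0833. Leaving out either of those libraries made it a call. Without control replicate 3 the log2 fold change was -0.50 (adjusted p = 0.00021), and without KO replicate 3 it was -0.56 (adjusted p = 4.28e-05).

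NORAD, a cytoplasmic RNA that binds the pumilio proteins, held 503, 609 and 605 CPM in control and 604, 566 and 592 CPM in KO (log2 fold change 0.05, adjusted p = 0.677). FGD5-AS1, divergent from the nuclear receptor gene NR2C2, held 191, 209 and 217 CPM and then 219.9, 194 and 212 CPM (log2 fold change 0.03, adjusted p = 0.798). In both the libraries of the groups interleaved. SNHG29 held 231, 244 and 242 CPM in control and 288, 286 and 292 CPM in KO, without overlap. Its log2 fold change of 0.28 (SE 0.0659, adjusted p = 0.00156) passed the test of p but not the fold. ZFAS1 held 154, 178 and 160 CPM and then 134, 164 and 159 CPM (log2 fold change -0.10, adjusted p = 0.362), and shared 36.4% of its exon bases with coding exons. Per kilobase of exon, the order of the control means was MALAT1 at 156 CPM per kilobase, NORAD at 106, FGD5-AS1 at 34.0, NEAT1 at 31.2, SNHG29 at 26.7 and ZFAS1 at 19.8. Exon lengths here are those of the later annotation, with the exons of all isoforms of a gene merged. The order depends on these lengths, since counts per gene do not tell isoforms apart.

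A list of RNAs known from cancer studies gave no call at this level, beside 16.0% called over all genes tested. Of the 38 symbols on that list 21 were tested, and 12 reached 5 CPM. Of the 21, 2 rose and 1 fell, none of them among the 12. The list is a choice, and called RNAs such as CASC9, named for cancer susceptibility, and DLEU2 are not on it. UCA1, named for urothelial cancer, held 47.0, 44.8 and 44.5 CPM in control and 47.0, 46.4 and 44.1 CPM in KO (log2 fold change 0.02, SE 0.0774, adjusted p = 0.879). LINC00958 held 30.8, 30.8 and 32.4 CPM in control and 40.2, 36.5 and 37.2 CPM in KO without overlap. The log2 fold change of 0.28 (SE 0.0802, adjusted p = 0.00791) was under the fold, and the adjusted p became 0.0563 without KO replicate 1. DLEU1 held 11.8, 12.6 and 13.0 CPM and then 8.96, 9.78 and 10.6 CPM (log2 fold change -0.34, SE 0.103, adjusted p = 0.0129). It missed the fold, and it passed both limits without KO replicate 3 (log2 fold change -0.41, adjusted p = 0.0124), while the adjusted p was 0.0581 without control replicate 3 and 0.0664 without KO replicate 1.

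Of the other RNAs on the list at this level, LINC00941 held 13.3, 14.5 and 16.9 CPM and then 12.9, 11.99 and 12.3 CPM (log2 fold change -0.26, adjusted p = 0.0503, and 0.0105 without control replicate 1). CYTOR, LINC00511, CRNDE, MAPKAPK5-AS1, TP53TG1, ZEB1-AS1 and LUCAT1 had log2 fold changes of -0.01, 0.02, 0.00, -0.07, -0.23, 0.09 and -0.22, with adjusted p from 0.138 to 0.982 and groups that overlapped. Below 5 CPM, CDKN2B-AS1 rose from 2.49, 3.02 and 2.92 CPM to 4.07, 3.67 and 4.02 CPM and LINC00460 from 1.35, 2.24 and 2.28 CPM to 3.10, 3.35 and 3.01 CPM. The imprinted RNA H19 fell from 2.88, 2.49 and 1.92 CPM to 0.706, 0.592 and 0.339 CPM (log2 fold change -2.16, SE 0.265, adjusted p = 2.54e-07).

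Among imprinted and X inactivation centre RNAs, 2 reached 5 CPM, and neither was called, beside 16.0% of all genes tested. JPX, which activates XIST in development, held 25.3, 29.1 and 27.6 CPM in control and 23.6, 26.3 and 25.7 CPM in KO (log2 fold change -0.10, adjusted p = 0.392). KCNQ1OT1, the antisense RNA of the KCNQ1 imprinted domain, held 8.82, 12.7 and 9.40 CPM and then 14.5, 13.7 and 9.57 CPM. The log2 fold change of 0.29 (SE 0.135) had an adjusted p of 0.109, with 1 KO library inside the control range. It became a call without control replicate 2 (log2 fold change 0.45, adjusted p = 0.00918) and without KO replicate 3 (0.45, adjusted p = 0.0108).

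Host RNAs are the primary transcripts of small RNAs. Of the 202 RNAs matched by symbol to a RefSeq gene, 13 held a microRNA on their own strand, and 2 of these rose and 2 fell. By GENCODE positions 16 RNAs held one, and 1 of these rose and 2 fell. Over all genes tested 16.0% were called. MIR22HG, divergent from WDR81 on chromosome 17, rose from 32.3, 38.7 and 39.7 CPM to 50.8, 50.1 and 51.3 CPM (log2 fold change 0.47, SE 0.0808, adjusted p = 4.72e-05). DANCR, known as an RNA that opposes differentiation, rose from 13.8, 15.6 and 14.5 CPM to 22.3, 25.5 and 23.5 CPM (0.71, SE 0.0924, adjusted p = 6.32e-07). DLEU2, from the region deleted in chronic lymphocytic leukaemia, fell from 10.5, 12.2 and 11.8 CPM to 7.12, 6.04 and 8.13 CPM (-0.69, SE 0.116, adjusted p = 3.37e-05). MIR1915HG fell from 24.3, 23.2 and 24.4 CPM to 18.7, 17.0 and 18.6 CPM (-0.40, SE 0.0886, adjusted p = 0.000864), and without KO replicate 2 its log2 fold change of -0.36 was under the fold. In all 4 the groups did not overlap.

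MicroRNAs of these 4 hosts, 1 arm of each hairpin, are printed to show what their primary transcripts encode, with the seed (bases 2 to 8) in capitals, from RefSeq on GRCh38.p14. Libraries of polyadenylated RNA do not measure mature microRNAs, so no level is given for them. The pair printed for DLEU2 has the seed AGCAGCA in common, and the seeds printed for the other hosts differ from it and from each other. DLEU2 also holds MIR3613, whose sequence is not printed.
hsa-miR-15a-5p, in DLEU2: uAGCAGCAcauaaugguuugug
hsa-miR-16-5p, in DLEU2: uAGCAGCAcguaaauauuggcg
hsa-miR-22-3p, in MIR22HG: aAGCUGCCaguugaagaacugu
hsa-miR-1915-3p, in MIR1915HG: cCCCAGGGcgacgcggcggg
hsa-miR-4449, in DANCR: cGUCCCGGggcugcgcgaggca
Of the 9 hosts that were not called, MIR4435-2HG was the most abundant, at a mean of 67.1 CPM (log2 fold change -0.14, adjusted p = 0.172). MIR222HG, the host of miR-221 and miR-222, had a log2 fold change of 0.16 (adjusted p = 0.285), MIR210HG of -0.25 (adjusted p = 0.0497) and MIR503HG of 0.30 (adjusted p = 0.0346). MIR4458HG came closest to a call, at a log2 fold change of -0.3785 (adjusted p = 0.0158), just under the fold.

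The hosts of small nucleolar RNAs, which guide the modification of ribosomal RNA, gave a single call. Of 16 that held a small nucleolar RNA by GENCODE positions, DANCR alone was called, beside 16.0% of all genes tested. Their median log2 fold change was -0.00138 and 8 lay below zero. GAS5, a growth arrest RNA at a mean of 77.3 CPM, had a log2 fold change of -0.03 (adjusted p = 0.812), and SNHG18 had 0.36 (adjusted p = 0.00187), under the fold.

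To relate each RNA to its coding neighbour, the 196 pairs in which both genes were tested were compared. The other 43 RNAs had a nearest coding gene that was too low to test, at a mean of 0.350 CPM at most. The RNA and the coding gene lay on the same side of zero in 123 pairs (62.8%), beside 60.5% of 9624 pairs of a tested coding gene with its own nearest coding gene. Across the 196 pairs Pearson's r between the log2 fold changes was 0.34 and Spearman's rho 0.35. For the coding pairs r was 0.19 and rho 0.26. Both values of a pair come from the same 6 libraries, some RNAs share a coding neighbour, and overlapping genes can share reads.

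The pairs were then split by arrangement. Among 66 antisense overlapping pairs r was 0.60 and rho 0.44, and among 81 divergent pairs r was 0.52 and rho 0.48. Among 45 pairs that lay apart r was 0.0553 and rho 0.0193. For coding genes the values of r were 0.19 antisense overlapping, 0.30 divergent and 0.17 apart. With only the 92 pairs in which the RNA shared no exon bases with a coding gene, r over all arrangements was 0.22, and rho was 0.22. Over 34 such divergent pairs r was 0.57 and rho 0.54, and over 13 antisense overlapping pairs r was 0.69 and rho 0.31. Of 36 called RNAs with a tested neighbour 27 lay on the same side as it, which was 12 of 13 for antisense overlapping RNAs, 9 of 10 for divergent RNAs and 5 of 12 for RNAs apart. Among called RNAs that shared no exon bases with a coding gene it was 12 of 21, with 4 of 5 for divergent and 3 of 4 for antisense overlapping RNAs. Of 1507 called coding genes 1006 lay on the same side as their nearest coding gene, which was 156 of 235 antisense overlapping, 137 of 192 divergent and 674 of 1027 apart.

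**Figure D3:**
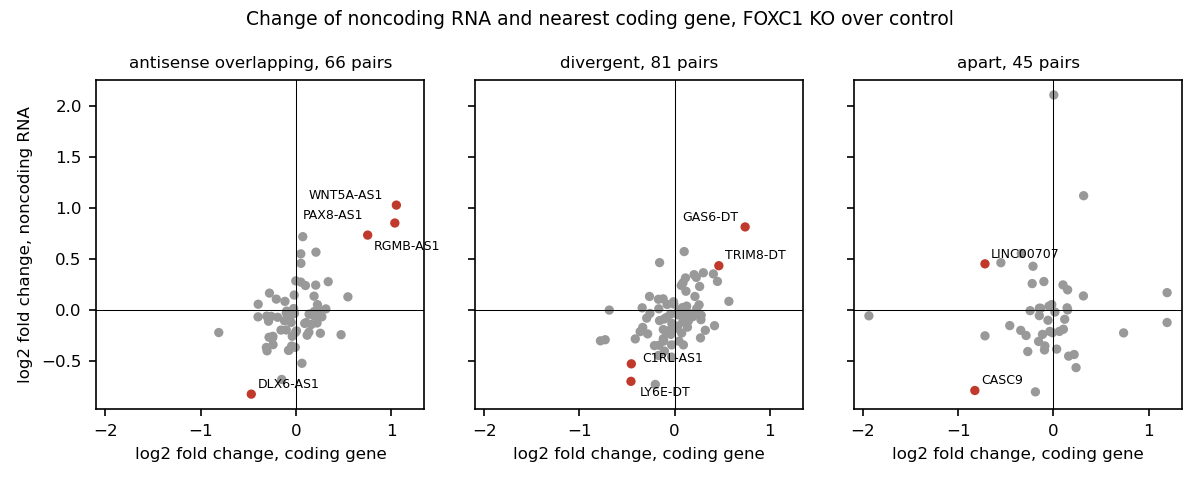
The log2 fold change (FOXC1 KO over control) of an RNA against that of its nearest coding gene, 1 point per pair, for 66 antisense overlapping, 81 divergent and 45 apart pairs. Red points with names are pairs in which both genes were called; in the apart panel LINC00707 is the pair on opposite sides of zero.

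Of the 190 different coding neighbours tested, 13 were higher and 12 lower (13.2%), beside 13.3% of tested coding genes at 5 CPM or more and 16.0% of all genes tested. Both genes were called in 11 pairs, in the same direction in 10 of them, beside 220 of 277 pairs of coding genes. Among RNAs without shared exon bases it was 3 of 4. WNT5A, which encodes a noncanonical Wnt ligand, held 85.3, 89.7 and 93.5 CPM in control and 189.6, 174 and 192 CPM in KO. Its log2 fold change of 1.06 (SE 0.0703, adjusted p = 1.13e-12) stood beside 1.03 for WNT5A-AS1. GAS6, which encodes a ligand of the TAM receptor kinases, held 119.5, 109.7 and 110.1 CPM and then 194, 194 and 177 CPM, which was 0.74 on the log2 scale (SE 0.0722, adjusted p = 3.4e-09). Its divergent partner GAS6-DT (chromosome 13, 114567085 to 114569807, plus strand) starts 36 bases from GAS6 and rose from 7.12, 6.63 and 7.64 CPM to 13.0, 12.7 and 11.9 CPM (0.82, SE 0.108, adjusted p = 7.71e-07), with no exon bases shared. The change in the ratio of the RNA to the coding gene was -0.03 (adjusted p = 0.956) for WNT5A-AS1 and 0.07 (adjusted p = 0.845) for GAS6-DT, on the log2 scale.

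PAX8, a paired box transcription factor gene, held 3.45, 4.39 and 3.96 CPM in control and 8.37, 8.28 and 7.54 CPM in KO (log2 fold change 1.04, SE 0.127, adjusted p = 2.34e-07), a level close to that of PAX8-AS1. RGMB encodes a co-receptor of bone morphogenetic proteins and held 146, 153 and 165 CPM and then 274, 257 and 247 CPM (0.75, SE 0.0697, adjusted p = 1.16e-09). RGMB-AS1 (chromosome 5, 98105322 to 98109173, minus strand) rose from 14.5, 17.3 and 18.03 CPM to 30.9, 26.6 and 25.5 CPM (0.74, SE 0.0959, adjusted p = 6.44e-07) and shared 15.4% of its exon bases with coding exons. Again no control library reached the lowest KO library.

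Among the falls, CASC9 was paired with HNF4G, a nuclear receptor gene 55587 bases away, which fell from 6.42, 8.45 and 7.996 CPM to 5.05, 4.34 and 3.56 CPM (-0.83, SE 0.138, adjusted p = 3.08e-05). DLX6 held 4.85, 6.13 and 5.997 CPM and then 3.64, 4.34 and 4.15 CPM (-0.47, SE 0.136, adjusted p = 0.00977, and 0.0595 by DESeq2). LY6E, the gene of a membrane-anchored lymphocyte antigen, had a log2 fold change of -0.46 beside -0.69 for LY6E-DT, which shared 1.97% of its exon bases, and the complement protease-like gene C1RL -0.45 beside -0.52 for C1RL-AS1, which shared 28.9% of its exon bases. These pairs are named because both genes were called lower, so their common direction does not bear on arrangement. Of called RNAs that lay apart from a tested neighbour, as CASC9 does, 5 of 12 were on its side of zero.

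In 2 more pairs with both genes higher, the counts of the RNA are uncertain, since all of its exon bases lie in coding exons of the later annotation. These were TRIM8-DT with the ubiquitin ligase gene TRIM8 and RP5-1024G6.8 with the lipoprotein receptor gene LRP8. The LRP8 log2 fold change of 0.38 fell under the fold in 4 of the 6 fits with a library left out, the lowest being 0.35 without control replicate 1.

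Start regions are printed for a pair that rose together and for a pair in which the RNA alone was called, with the bases that also lie in the window of the coding gene in capitals. The GAS6-DT window (chr13:113863927-113864226, plus strand, GRCh38.p14) shares 200 bases with that of GAS6, and the RefSeq starts are 101 bases apart. The GATD1-DT window (chr11:777328-777627, plus strand) shares 190 bases with that of GATD1, with starts 91 bases apart.
GAS6-DT: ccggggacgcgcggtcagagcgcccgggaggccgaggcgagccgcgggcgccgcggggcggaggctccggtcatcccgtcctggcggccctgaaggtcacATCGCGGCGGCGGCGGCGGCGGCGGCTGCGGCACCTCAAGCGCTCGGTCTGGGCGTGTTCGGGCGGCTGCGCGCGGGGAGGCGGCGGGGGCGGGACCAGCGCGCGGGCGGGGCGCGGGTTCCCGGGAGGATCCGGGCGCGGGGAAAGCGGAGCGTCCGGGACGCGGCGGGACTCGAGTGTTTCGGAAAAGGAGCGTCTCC
GATD1-DT: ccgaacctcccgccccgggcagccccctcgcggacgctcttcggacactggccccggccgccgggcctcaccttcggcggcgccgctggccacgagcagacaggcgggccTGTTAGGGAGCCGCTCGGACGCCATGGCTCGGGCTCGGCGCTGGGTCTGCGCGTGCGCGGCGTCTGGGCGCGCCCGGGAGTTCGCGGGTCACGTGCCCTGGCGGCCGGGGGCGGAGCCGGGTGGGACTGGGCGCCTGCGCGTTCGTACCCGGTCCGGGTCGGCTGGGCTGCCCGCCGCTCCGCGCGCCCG
The WNT5A-AS1 and WNT5A windows share 189 bases, with RefSeq starts 312 bases apart.

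Whether an RNA and its neighbour moved by different amounts was tested with limma on the log2 ratio of their CPM in each library. The ratio changed in 9 of 196 pairs (4.59%), beside 4.90% of all 1286 pairs of a tested intergenic or antisense RNA with a tested neighbour. With a variance trend on level, chosen after the data were seen, 37 pairs passed (18.9%, beside 10.5%). The ratio of MANCR to AKR1E2 rose by 2.04 (SE 0.23, adjusted p = 0.00172). Next came LINC01128, an intergenic RNA on chromosome 1 (760518 to 794826, plus strand), whose ratio to SAMD11 rose by 1.84 (SE 0.184, adjusted p = 0.0014). There the coding gene moved. LINC01128 held 9.87, 7.95 and 10.0 CPM in control and 10.2, 7.93 and 8.81 CPM in KO (log2 fold change -0.05, adjusted p = 0.784), while SAMD11 fell from 9.83, 7.58 and 7.60 CPM to 2.39, 2.05 and 2.08 CPM (-1.94, adjusted p = 5.15e-11).

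The same form was seen at WNT7B, which encodes a Wnt ligand and rose from 0.699, 0.539 and 0.680 CPM to 1.68, 1.34 and 1.40 CPM (1.19, adjusted p = 0.000715). PRR34-AS1 (chromosome 22, 46449585 to 46453090, plus strand) held 8.86, 9.44 and 9.92 CPM and then 9.07, 7.85 and 9.02 CPM, and its ratio to WNT7B fell by 1.23 (SE 0.188, adjusted p = 0.00556). LINC00707 (chromosome 10, 6821511 to 6884868, plus strand) rose from 6.16, 6.75 and 8.04 CPM to 9.62, 8.99 and 10.0 CPM (0.46, adjusted p = 0.00327). Its neighbour PRKCQ, the gene of protein kinase C theta, went from 1.40, 1.95 and 1.599 CPM to 0.978, 1.03 and 0.974 CPM (-0.72, adjusted p = 0.0173), and this was the called pair on opposite sides. The PRKCQ call was lost without control replicate 2 (adjusted p = 0.106), without KO replicate 3 (0.0524) and by DESeq2 (0.131). The ratio of LINC00707 to PRKCQ changed by 1.13 (adjusted p = 0.0114, and 0.0522 without KO replicate 3).

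The RNA listed as ENSG00000227706 (chromosome 6, 68588209 to 68599231, minus strand) rose from 28.7, 26.8 and 26.4 CPM to 37.7, 37.6 and 37.5 CPM (0.47, SE 0.0818, adjusted p = 5.83e-05). Its neighbour, the adhesion receptor gene ADGRB3, lay 745943 bases away and had a log2 fold change of -0.55 (adjusted p = 0.0524). The ratio changed by 0.99 (adjusted p = 0.024), but 4 of 6 fits with a library left out lost it. The pairs PVT1 with MYC, LINC00899 with WNT7B, LINC01605 with ZNF703 and OLMALINC with SCD also passed. MYC held 48.6, 46.5 and 48.1 CPM in control and 81.2, 79.0 and 77.1 CPM in KO, while PVT1, the RNA downstream of it, held 20.8, 21.0 and 22.0 CPM and then 18.96, 18.1 and 17.5 CPM. The ratio of PVT1 to MYC fell by 0.95 (adjusted p = 0.0103), and the adjusted p was 0.0518 without control replicate 3. Of 6 fits with a library left out, LINC00899 and OLMALINC lost the call in 5 and LINC01605 in 6. The highest adjusted p, without control replicate 3, was 0.151 for LINC00899, 0.12 for OLMALINC and 0.148 for LINC01605.

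**Figure D4:**
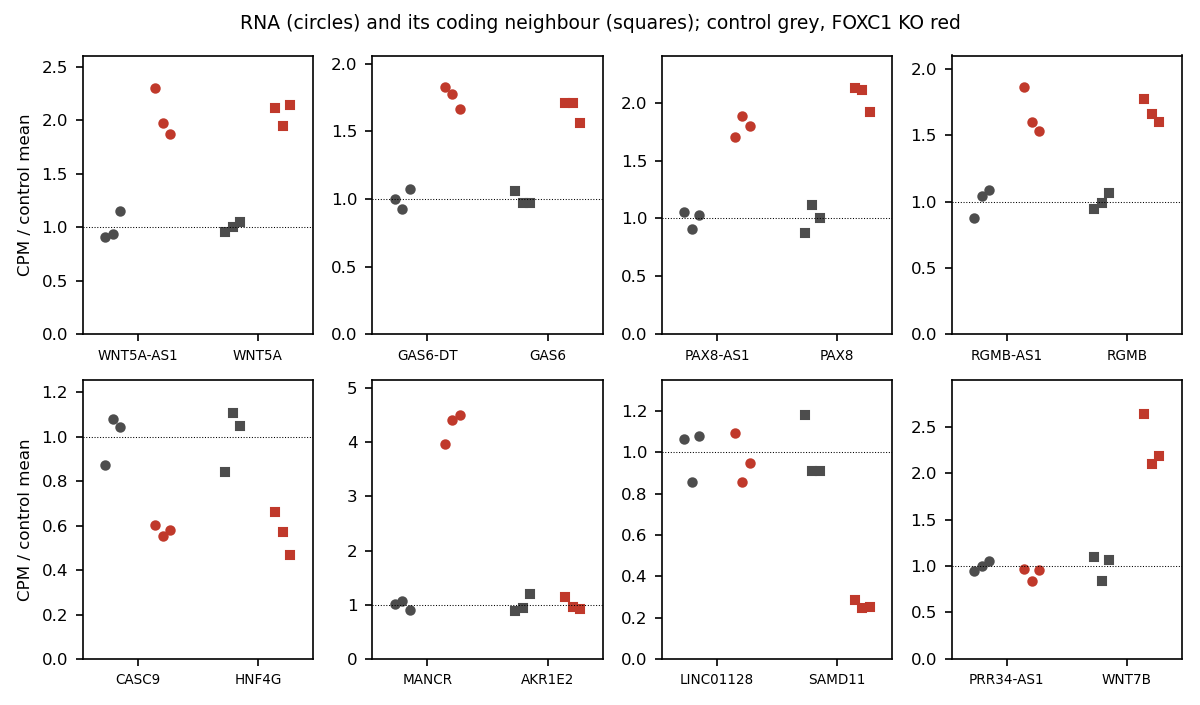
CPM of an RNA (circles) and of its nearest coding gene (squares) in each library, divided by the control mean of that gene, with axes from 0; grey is control and red FOXC1 KO. The upper row shows 4 pairs that rose together, CASC9 and HNF4G fell together, and in the other 3 panels MANCR, SAMD11 or WNT7B moved away from the dotted line at 1 in KO while the partner's libraries stayed around it.

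In some pairs the coding gene was called and the RNA was not. ZEB1, a transcription factor gene of mesenchymal cells, rose from 46.9, 52.8 and 48.2 CPM to 64.5, 72.7 and 80.6 CPM (0.57, adjusted p = 3.64e-06), while the divergent ZEB1-AS1 held 5.59, 6.21 and 6.16 CPM and then 7.06, 6.04 and 6.01 CPM. The change in their ratio, -0.47, did not pass (adjusted p = 0.236). For CRNDE with the homeobox gene IRX5 (log2 fold change -0.69) the ratio changed by 0.65 (adjusted p = 0.141), and the IRX5 call was lost without control replicate 3. For LUCAT1 with ADGRV1 (-0.81) it changed by 0.59 (adjusted p = 0.273).

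The genes of proteins that bind or degrade such RNAs were read from lists. Over 58 tested genes of paraspeckle proteins, NORAD partners, the nuclear exosome, nonsense-mediated decay and polycomb repressive complex 2, 1 rose and 1 fell, beside the background of 16.0% called over all genes tested, and DESeq2 called 2. DIS3, the catalytic exosome subunit, rose from 73.7, 82.9 and 75.6 CPM to 100.4, 107 and 117 CPM (0.49, SE 0.0752, adjusted p = 9.12e-06). EXOSC5, a ring subunit, fell from 37.9, 31.3 and 32.9 CPM to 24.9, 27.2 and 24.2 CPM (-0.41, SE 0.0912, adjusted p = 0.000965). None of the 15 paraspeckle protein genes was called.

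Markers were read beside these results. Of 17 urothelial and epithelial markers 8 were tested and 6 fell (KRT8, KRT18, KRT19, GATA3, PPARG and EPCAM), beside 8.39% lower over all genes tested. KRT7 (log2 fold change -0.07, adjusted p = 0.575) and UPK3B (-0.15, adjusted p = 0.76) were tested and not called. The whole list of 17, with KRT7, summed to 3233 to 3920 CPM in control and 2481 to 2752 CPM in KO. UPK3A was at 0 in every library and the other uroplakin genes were under 1 CPM. Of 5 mesenchymal markers ZEB1 and SPARC rose, beside 7.57% higher over all genes tested. VIM had a log2 fold change of 0.30 (adjusted p = 0.00137), under the fold. CDH2 (-0.11, adjusted p = 0.251) and FN1 (0.01, adjusted p = 0.949) were not called. Markers of other cell types summed to 4.14 to 5.37 CPM in control and 6.90 to 8.09 CPM in KO, and CD3E, HBA1 and INS were at 0. Of 3 such markers tested, CD14 and CDH5 were called higher and MYH11 was not called (log2 fold change 0.04, adjusted p = 0.947). The part of these markers in the results was not tested.

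At the 5 CPM limit, the RNAs just inside were ENSG00000267317 (mean 5.03 CPM, log2 fold change 0.06), SDCBP2-AS1 (5.05 CPM, 0.00) and ENSG00000176593 (5.11 CPM, -0.03). Just outside were ZNF529-AS1 (4.97 CPM, -0.19), PKD1L1-AS1 (4.94 CPM, 0.67) and CRIM1-DT (4.93 CPM, -0.44).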

How the data were processed

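RNA-seq counts of 3 control and 3 FOXC1 KO libraries of J82 were used, grouped by the sample titles. The authors deposited raw read counts per gene, made by aligning reads to hg19 with STAR and counting GENCODE v19 genes with featureCounts. The settings for strand and for multi-mapping reads, and the tool versions, were not given in the sources used here. All 57820 rows named a gene, 0 columns belonged to other samples, and 55538 identifiers (96.05%) matched GENCODE v44 lifted to GRCh37. Depth was 18408134 to 25350908 counts per library, and libraries of a group differed by more than sampling noise (chi-square per gene 2.74 to 9.15), so none was a duplicate.

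Classes were rebuilt from position and strand, since the v19 types were not used here. Genes kept by filterByExpr were fitted with TMM scaling and edgeR 4.0.16 (R 4.3.3; quasi-likelihood F test, robust) with group as the only term, Benjamini-Hochberg adjustment over all genes, and calls at adjusted p under 0.05 and fold change over 1.3, as in the study's methods. DESeq2 (1.42.0), which the authors had used, was an alternative. Printed CPM values are counts over the library total, and SEs are those of the log2 fold change. Ratios of an RNA to its neighbour were tested with limma 3.58.1 (eBayes, robust) on log2 CPM with a prior count of 2. Both procedures were tested on simulated data.

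The RNAs and the gene lists were chosen with earlier results of these data known. Named are the 6 highest and 6 lowest called RNAs, the 6 most abundant, the nuclear body, imprinted and cancer-studied RNAs, called hosts, the 5 largest changes in ratio, up to 4 called genes of other lists, the RNAs nearest the CPM limit and FOXC1. The other names, which include the nearest tested coding genes, the pairs in which both genes or the coding gene were called and the hosts that were not called, were chosen after their values were seen. Alternatives were DESeq2, RLE or library size scaling, other filters, CPM minimums and fold limits, a replicate block, leaving out each library, RNAs without coding exon overlap and, added later, the nearest tested gene and a variance trend. Sequences are from RefSeq on GRCh38.p14, and no coordinates were converted between builds.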

Additional observations from a re-analysis of the deposited data

How the results depend on the processing

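The 22 higher and 25 lower calls became 35 and 43 with no fold limit, 5 and 0 at 2-fold, 50 and 74 at a minimum of 2 CPM, 9 and 13 at 10 CPM, and 11 and 15 among RNAs without coding exon overlap. DESeq2 shared 41 of the 47 calls. The median of -0.0516 was -0.0602 with library size alone, -0.0317 without exon overlap and -0.0822 (without control replicate 1) to -0.039 (without control replicate 2) with a library left out. Without exon overlap 6 neighbours were higher and 7 lower, 56 of 92 pairs had the same direction, 3 were called in the same direction, and r was 0.222. With the nearest tested gene for all 239 RNAs r was 0.282. Higher and lower ratios (6 and 3) became 16 and 21 with a variance trend, and 2 to 4 and 1 to 3 with a library left out (3 higher without control replicate 1 or 3, 2 without KO replicate 3, and 1 lower without control replicate 3). The genes of binding and decay proteins gave 1 to 3 higher and 0 to 1 lower calls with a library left out (3 higher without control replicate 2 or KO replicate 1, and 2 and 0 without control replicate 1). The cause of these shifts was not tested beyond the thresholds and sets that define them.

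Same-numbered libraries did not pair, with correlations of their deviations of -0.0271, -0.0718 and 0.0502. With the replicate number as a block there were 49 calls, which held all 47, and higher ratios were 3. Under that block NEAT1 became a call (log2 fold change -0.40, adjusted p = 5.06e-05), while MALAT1 (adjusted p = 0.0404) and KCNQ1OT1 (adjusted p = 0.0465) stayed under the fold. With library size alone that of LINC00941 was 0.0477. Depth limits RNAs near 5 CPM, whose SE was near 0.13 to 0.15.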

Other observations

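Where the nearest coding gene was too low to test, the nearest tested one was read as well, a choice made after the data were seen. For UCA1, whose groups overlapped, that gene was CYP4F11, a fatty acid hydroxylase gene 76.0 kb away. CYP4F11 was at 0, 0.0828 and 0.0400 CPM in control and at 1.25, 1.42 and 1.19 CPM in KO (adjusted p = 7.62e-09 by edgeR). For NORAD it was EPB41L1, a membrane skeleton gene 40.5 kb away, which fell from 68.0, 61.5 and 65.7 CPM to 46.0, 51.3 and 47.6 CPM (log2 fold change -0.42, adjusted p = 0.000124) while NORAD overlapped between groups. For DLEU2, TRIM13 overlapped it and held 17.3, 20.7 and 20.9 CPM and then 21.9, 17.0 and 18.97 CPM (log2 fold change -0.02, adjusted p = 0.887). For the lower RNA listed as ENSG00000247228, PDPR overlapped it and fell as well (log2 fold change -0.51 beside -0.53), and 67.8% of the exon bases of that RNA lie in coding exons.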
